A study of Mus musculus with 14 samples.

Results

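The genes for 9 milk proteins were followed tumor by tumor in mouse mammary tumors: the caseins Csn1s1, Csn1s2a, Csn2 and Csn3, the whey proteins Wap and Lalba, the mucin-like glycoprotein Glycam1, and Btn1a1 and Xdh of the milk fat globule. They were taken by gene symbol from a table of 56414 genes, in which each of the 9 symbols matched 1 row. Bulk RNA-seq was performed on polyadenylated RNA from 14 tumors of C57Bl/6 mice, with 1 library per tumor. M/D-driven tumors arose in the mammary glands of females that were 6 to 9 weeks old when they received a pellet slowly releasing 50 mg of the progestin medroxyprogesterone acetate (MPA, M), followed by oral doses of DMBA (D), a polycyclic hydrocarbon that mutates DNA, each of 200 µL at 5 mg/mL. Untreated and NAM-treated animals with M/D-driven tumors thus shared the progestin and the carcinogen. AT3 tumors grew under the skin from injected cells of AT3, a transplantable line established from a mammary carcinoma of a mouse carrying the polyoma middle T oncogene under a mammary tumor virus promoter. All 6 AT3 tumors thus stemmed from 1 cell line. NAM (nicotinamide, a form of vitamin B3) was given at 0.5% in the drinking water for 10 days once tumors had reached 0.25 cm2, to 4 of 8 mice with M/D-driven tumors and to 3 of 6 mice with AT3 tumors.

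Milk protein genes are silent or weakly active in the resting mammary gland and are switched on in luminal alveolar cells during pregnancy and lactation. Prolactin, through its receptor, the kinase JAK2 and the transcription factor STAT5, acts together with glucocorticoids and the factor ELF5 to drive them, and progestins are known to hold back full lactation. Caseins assemble into micelles that carry calcium, with κ-casein (Csn3) stabilizing the surface. Lalba (α-lactalbumin) is the regulatory subunit of lactose synthase, Btn1a1 (butyrophilin) and Xdh (xanthine dehydrogenase) act together in wrapping milk fat droplets in membrane, and Xdh also serves purine breakdown in many tissues. The 4 casein genes lie together on chromosome 5 of mm10, between 87666207 and 87932548, whereas Wap lies on chromosome 11, Lalba and Glycam1 on chromosome 15, Btn1a1 on chromosome 13 and Xdh on chromosome 17.

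The 250 bases upstream of the transcription start are shown for the 4 members that had the same 3 highest M/D-driven tumors, from RefSeq promoters on GRCm38.p6, 5′ to 3′ along the strand of the gene. Capitals mark the letters TTCNNNGAA, the core bound by STAT5, which reads the same on both strands.
Csn2 (chr5:87699426-87699675, minus strand): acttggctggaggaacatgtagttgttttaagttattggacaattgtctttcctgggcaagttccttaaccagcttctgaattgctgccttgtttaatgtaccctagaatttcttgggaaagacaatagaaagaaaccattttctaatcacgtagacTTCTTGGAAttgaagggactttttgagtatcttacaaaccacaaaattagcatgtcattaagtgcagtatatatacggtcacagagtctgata
Csn1s1 (chr5:87665958-87666207, plus strand): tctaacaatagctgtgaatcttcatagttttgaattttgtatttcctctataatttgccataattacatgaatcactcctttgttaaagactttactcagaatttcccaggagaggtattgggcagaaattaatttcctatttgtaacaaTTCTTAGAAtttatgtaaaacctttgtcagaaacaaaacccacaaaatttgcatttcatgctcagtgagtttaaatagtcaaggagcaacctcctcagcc
Csn1s2a (chr5:87774200-87774449, plus strand): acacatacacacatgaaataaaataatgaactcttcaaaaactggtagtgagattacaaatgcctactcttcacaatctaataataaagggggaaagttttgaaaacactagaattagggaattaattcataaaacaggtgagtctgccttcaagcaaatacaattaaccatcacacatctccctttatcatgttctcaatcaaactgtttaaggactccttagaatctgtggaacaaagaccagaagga
Glycam1 (chr15:103565082-103565331, minus strand): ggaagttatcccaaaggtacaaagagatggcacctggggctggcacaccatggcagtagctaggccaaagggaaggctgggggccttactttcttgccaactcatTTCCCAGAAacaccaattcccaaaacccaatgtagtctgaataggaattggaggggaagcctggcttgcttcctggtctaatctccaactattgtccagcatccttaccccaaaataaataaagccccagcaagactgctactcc

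These letters were found 93 bases before the start of Csn2, 100 before that of Csn1s1 and 145 before that of Glycam1, counted to the first base of the match. They were present in the window of 3 of the 6 members with a promoter entry, which are these 4 genes with Wap and Lalba, and in 7.02% of the 32851 promoters listed. The half-site TGTTCT of the glucocorticoid receptor, or AGAACA on the other strand, was present in 1 of the 6 (Csn1s2a, 59 bases before the start) and in 16.1% of all promoters. The C/EBP letters TTGCNNAA, or TTNNGCAA on the other strand, were present in 0 of the 6 and in 9.56% of all promoters. A match describes letters in this window, and binding was not measured. Csn3, Btn1a1 and Xdh are named only.

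The libraries held 40936868 to 84178009 recovered reads. Values are normalized counts, which the authors had scaled within each model, so that tumors are compared within a model unless a common scale is named. NAM-treated M/D-driven tumor 1, the only tumor of experiment 2 by the labels, stood apart from the other 7. The 9 luminal epithelial markers (keratins, Epcam, Cdh1 and claudins) summed to 8089 normalized counts in this tumor, against 115045 to 391500 in the others, and 0 of the 9 were at 0 in every tumor of any group. The 7 basal and myoepithelial markers summed to 5978, against 232700 to 1104160. The B cell gene Cd79a was at 86806 in this tumor, against 17.3 to 822 in the other 7 M/D-driven tumors. Fold changes, list counts, spreads and likeness in M/D-driven tumors are therefore also given without it. The luminal markers summed to 64733 to 97589 in AT3 tumors.

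The 9 genes together took up 0.140%, 0.248%, 0.478% and 0.0156% of the reads of untreated M/D-driven tumors 1 to 4, and 0.284%, 0.0215%, 0.441% and 0.0475% in the NAM-treated ones. Their share in AT3 tumors was 0.0775%, 0.0700% and 0.224% without and 0.114%, 0.0857% and 0.0859% with NAM. The widest 95% Wilson interval among these shares was 0.440% to 0.443%, and all intervals cover counting error only. Both high and low shares occurred with and without NAM, and the makeup of the milk protein RNA differed as well. Csn3 accounted for 98.3% and 95% of the casein reads of untreated tumor 1 and NAM-treated tumor 3, respectively, but for 22.5%, 21.0% and 10.3% in untreated tumors 2 and 3 and NAM-treated tumor 1. In the 6 AT3 tumors this share was 94.3% to 98.8%. In bulk samples, fewer milk-producing cells and less RNA per cell cannot be told apart.

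**Figure D1:**
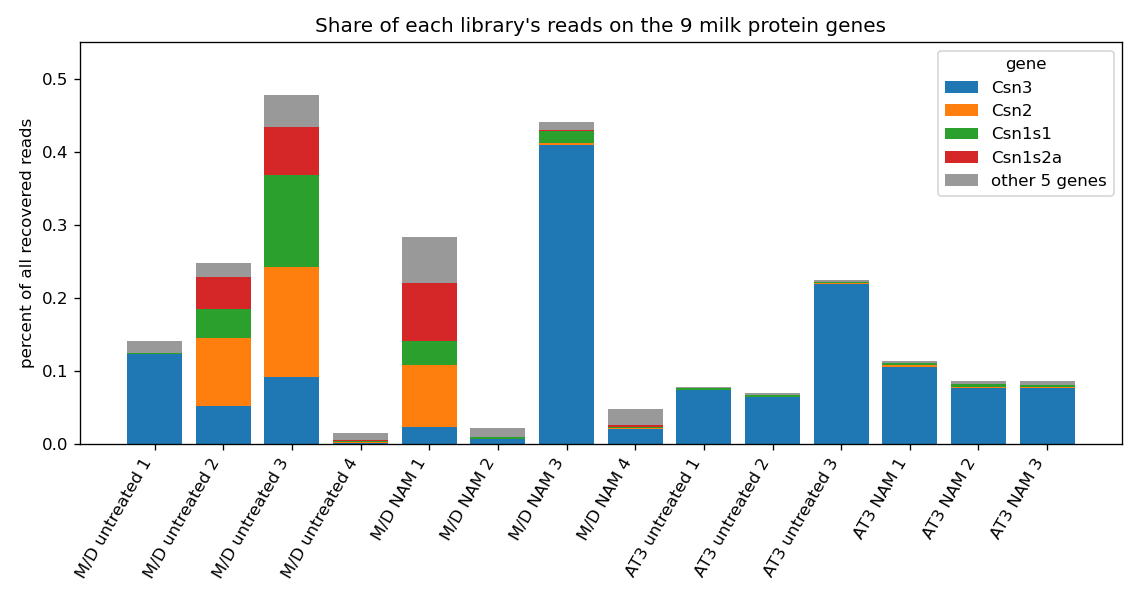
Percent of all recovered reads of each library (y axis) on each casein gene and on the other 5 genes together, for 14 tumors (x axis, 1 bar per tumor). Csn3 makes up nearly all of the bar in AT3 tumors, whereas Csn2, Csn1s1 and Csn1s2a fill most of it in untreated M/D-driven tumors 2 and 3 and in NAM-treated tumor 1.

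Csn2 (β-casein) was at 385, 56170, 86389 and 854 normalized counts in untreated M/D-driven tumors 1 to 4. The NAM-treated M/D-driven tumors 1 to 4 had 49485, 21.9, 1815 and 1005. No tumor lay between 1815 and 49485, and high and low tumors occurred in both groups. With NAM, however, the only high tumor was tumor 1, the tumor of experiment 2, and tumors 2 to 4 were at 21.9 to 1815. AT3 tumors had 335, 115 and 552 without NAM and 840, 521 and 378 with NAM, and all 6 were within 115 to 840.

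Csn1s1 (αs1-casein) followed Csn2, at 812, 23658, 71815 and 750 normalized counts in untreated M/D-driven tumors. NAM-treated ones had 19217, 1405, 8135 and 703. The highest levels were again in untreated tumors 2 and 3 and NAM-treated tumor 1. AT3 tumors lay close together, at 1127, 1279 and 1099 without and 1548, 1630 and 1649 with NAM.

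Csn1s2a (αs2-casein A) had the widest range, at 29.1, 25971, 37632 and 766 normalized counts in untreated M/D-driven tumors. With NAM it was at 46300, 0, 1057 and 894. In NAM-treated tumor 2, 0 of 50391585 reads fell on it, which allows up to 3.65 normalized counts. AT3 tumors had 8.70, 2.03 and 6.51 without and 14.6, 3.76 and 6.61 with NAM, from 2 to 12 reads each. All 3 caseins thus shared their 3 highest tumors, and all were low in untreated tumors 1 and 4 and in NAM-treated tumors 2 and 4.

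Csn3 took another course, at 69926, 30792, 52113 and 1218 normalized counts in untreated M/D-driven tumors. The NAM-treated group had 13250, 4366, 209069 and 10597. Untreated tumor 1, which had little of the other caseins, ranked second for Csn3, and NAM-treated tumor 3 ranked highest. AT3 tumors had 46847, 31566 and 134865 without and 52655, 35531 and 34572 with NAM, highest in untreated tumor 3. Per kilobase of the longest coding transcript, the ratio of the level of Csn3 to that of Csn2 was 151, 0.456, 0.502 and 1.19 in untreated and 0.223, 166, 95.9 and 8.78 in NAM-treated M/D-driven tumors. It was 52.2 to 229 in the 6 AT3 tumors.

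Wap (whey acidic protein) was at 49.9, 15.2, 3904 and 43.5 normalized counts in untreated and at 9064, 19.5, 154 and 9.63 in NAM-treated M/D-driven tumors. Untreated tumor 3 and NAM-treated tumor 1 were high, whereas untreated tumor 2 was low for Wap although it was among the 3 highest for Csn2. In AT3 tumors Wap was at 2.90 to 12.2, from 2 to 14 reads. Lalba was at 8.31, 188, 986 and 15.3 in untreated and at 242, 30.4, 215 and 69.0 in NAM-treated M/D-driven tumors, and at 6.08 to 30.9 in AT3 tumors. The highest Lalba level was in untreated tumor 3.

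Glycam1, a secreted glycoprotein of milk that high endothelial venules of lymph nodes also make, was at 130, 1002, 10108 and 550 normalized counts in untreated M/D-driven tumors. The NAM-treated ones had 24421, 31.7, 450 and 202. The highest level was in NAM-treated tumor 1, where the venule marker Madcam1 was at 776 against 6.52 to 170 in the other 7 M/D-driven tumors and the venule sulfotransferase Chst4 at 42.4 against 0 to 19.6. Of the 8 venule and lymph node markers listed, 7 were highest in this tumor, whereas the venule fucosyltransferase gene Fut7 was at 69.6 there, against 42.1 to 1301 in the other 7. Besides Madcam1, Chst4 and Ccl21a, these were the B cell genes Cd79a and Ms4a1 and the lymph node genes Cr2 and Cxcl13. The margins of the B cell genes differed, with Cd79a at 86806 against 17.3 to 822 in the other 7, and Ms4a1 at 270 against 0 to 152. How many of all genes were highest in this tumor was not counted. The part of these markers in the Glycam1 level was not tested. In untreated tumor 3, the second highest for Glycam1, Madcam1 was at 37.5 and Chst4 at 4.51. AT3 tumors had 8.12 to 16.3 of Glycam1, from 8 to 20 reads, with Chst4 at 0 in every one.

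Btn1a1 was at 558, 4501, 1107 and 82.9 normalized counts in untreated and at 325, 24.4, 615 and 1148 in NAM-treated M/D-driven tumors. Untreated tumor 2 was highest and NAM-treated tumor 2 lowest. AT3 tumors had 5.80 to 24.0. Xdh was at 8095, 5820, 9450 and 6294 in untreated and at 2403, 7279, 4120 and 10113 in NAM-treated M/D-driven tumors, and its lowest level was in NAM-treated tumor 1. The AT3 tumors had 759, 1546 and 1113 of Xdh without and 1380, 1882 and 2007 with NAM. Xdh thus varied 4.21-fold between the lowest and the highest M/D-driven tumor, against 102-fold for Csn1s1, 119-fold for Lalba, 172-fold for Csn3 and 3941-fold for Csn2.

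**Figure D2:**
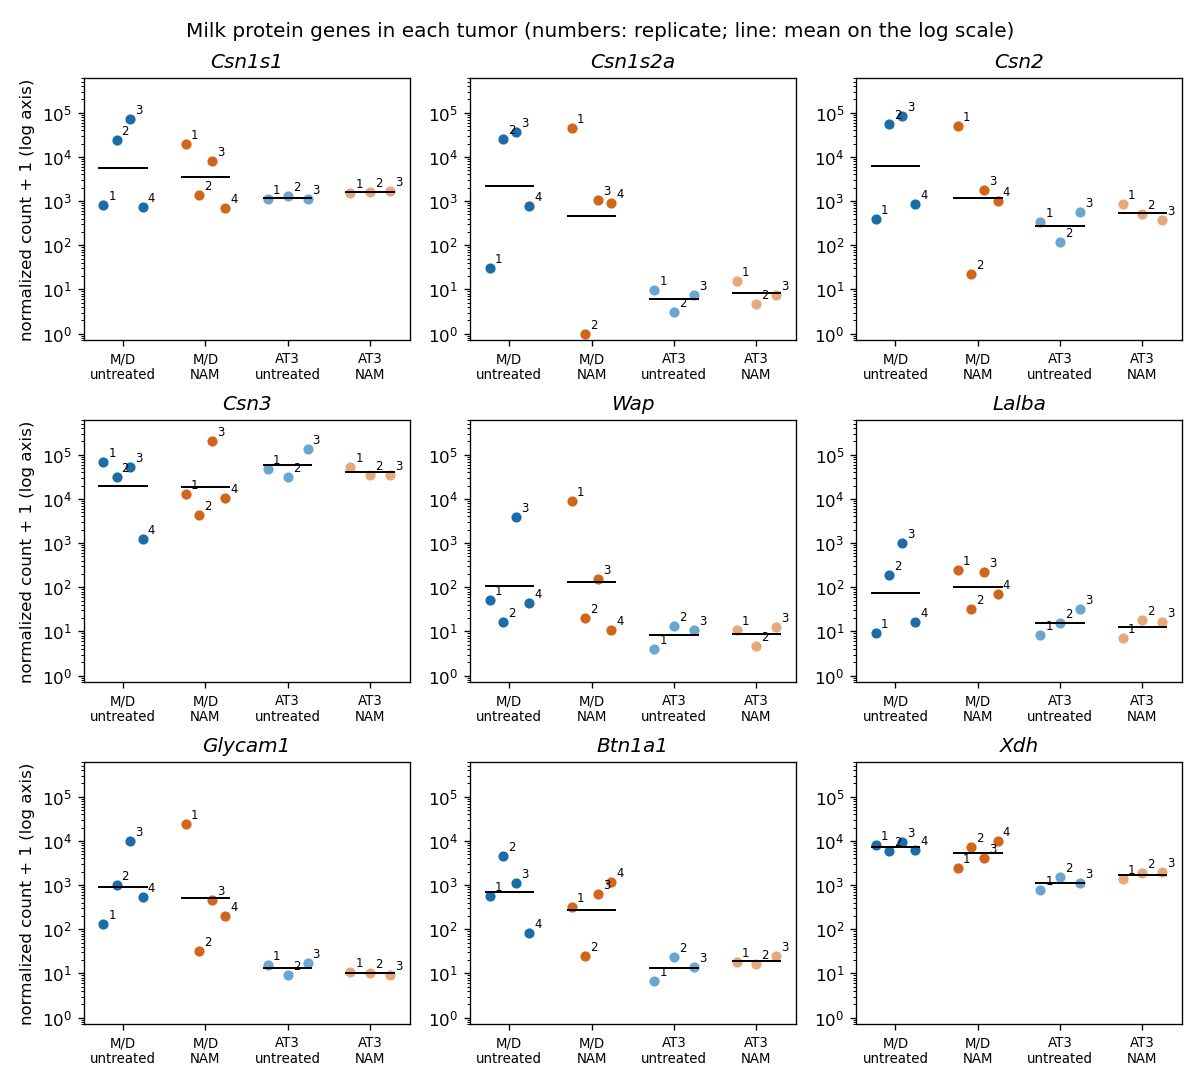
Normalized count + 1 of each of the 9 genes on a log axis (y axis) in the 4 groups (x axis), with values scaled separately for each model. Each point is 1 tumor with its replicate number and each line the mean on the log scale, and the M/D-driven groups spread widely and overlap for every gene, while Xdh spreads 4.21-fold over the 8 M/D-driven tumors.

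The spread between tumors of the same group was larger for 8 of 9 members than for most genes tested in M/D-driven tumors. On the log2 scale, the SD between M/D-driven tumors within groups was 5.70 for Csn1s2a, 4.29 for Csn2, 3.98 for Wap, 3.39 for Glycam1, 2.85 for Csn1s1, 2.56 for Csn3, 2.43 for Lalba and 2.4 for Btn1a1. The median over the 21700 genes tested was 0.68, and these 8 members lay between the 94.5th and the 99.8th percentile. Xdh, with an SD of 0.69, lay at the 50.1st percentile. Without NAM-treated tumor 1, the SD was 2.37 to 5.21 for these 8 members, between the 95.4th and the 99.6th percentile, and 0.48 for Xdh, at the 46.0th, against a median of 0.54 over 21489 genes. In AT3 tumors, Csn1s1 had an SD of 0.09 and lay at the 1.42nd percentile of 19281 genes, whereas Csn2 (0.91) lay at the 87.0th and Csn3 (0.80) at the 82.8th.

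Because Csn2 fell into separate ranges with fewer than 6 M/D-driven tumors in each, a relation between the members was not tested there. As a description over the 8 tumors, which share a model but not treatment or experiment, the correlation with Csn2 on the log2(normalized count + 1) scale was 0.97 for Csn1s2a, 0.90 for Glycam1, 0.84 for Csn1s1, 0.78 for Lalba, 0.71 for Btn1a1 and 0.62 for Wap. It was 0.34 for Csn3 and -0.32 for Xdh. The other genes most like Csn2 by this measure were Zfp729a (0.90), Hist3h2ba (0.89), 1700008J07Rik (0.89), Fam126b (0.88) and Lrrc14 (0.87), but Hist3h2ba, the widest among them, ranged 6.47-fold and Lrrc14 1.25-fold. Without NAM-treated tumor 1, the correlation was 0.96 for Csn1s2a, 0.92 for Glycam1, 0.82 for Csn1s1, 0.81 for Btn1a1, 0.76 for Lalba, 0.52 for Wap, 0.41 for Csn3 and -0.0013 for Xdh. The 5 other genes most like Csn2 were then Folr1 (0.95), Gm35551 (0.95), Unc13b (0.94), 1700011B04Rik (0.94) and Lrrc14 (0.93), of which Lrrc14 alone was also among the 5 over all 8 tumors. Of the 3 tumors with the most Csn2, Csn1s1, Csn1s2a and Glycam1 shared 3, Wap, Lalba and Btn1a1 shared 2, and Csn3 and Xdh shared 1. Over the 6 AT3 tumors, none of the 6 relations with Csn2 that were computed passed an exact permutation test. The strongest was that of Csn3, with r = 0.47 (exact permutation p = 0.285, adjusted p = 0.95), Spearman's rho = 0.77 (p = 0.103, adjusted p = 0.617) and r = 0.52 without the 2 tumors farthest from the median of Csn2.

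The order of the tumors by Csn2 differed from their order by luminal markers. The mean of Krt8, Krt18 and Epcam was 22298, 61313, 19560 and 11174 normalized counts in untreated and 1123, 13840, 37873 and 32348 in NAM-treated M/D-driven tumors. Divided by this mean, Csn2 was at 0.0173, 0.916, 4.42 and 0.0764 in untreated and at 44.1, 0.00158, 0.0479 and 0.0311 in NAM-treated M/D-driven tumors. NAM-treated tumor 1 had the fewest luminal marker counts and the most Csn2 per marker count. In AT3 tumors the mean of the 3 markers was 15242 to 26179, and Csn2 over this mean was 0.00734 to 0.0425. Csn3 over the same mean was 1.79 to 6.91 in AT3 tumors and 0.109 to 11.8 in M/D-driven tumors.

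**Figure D3:**
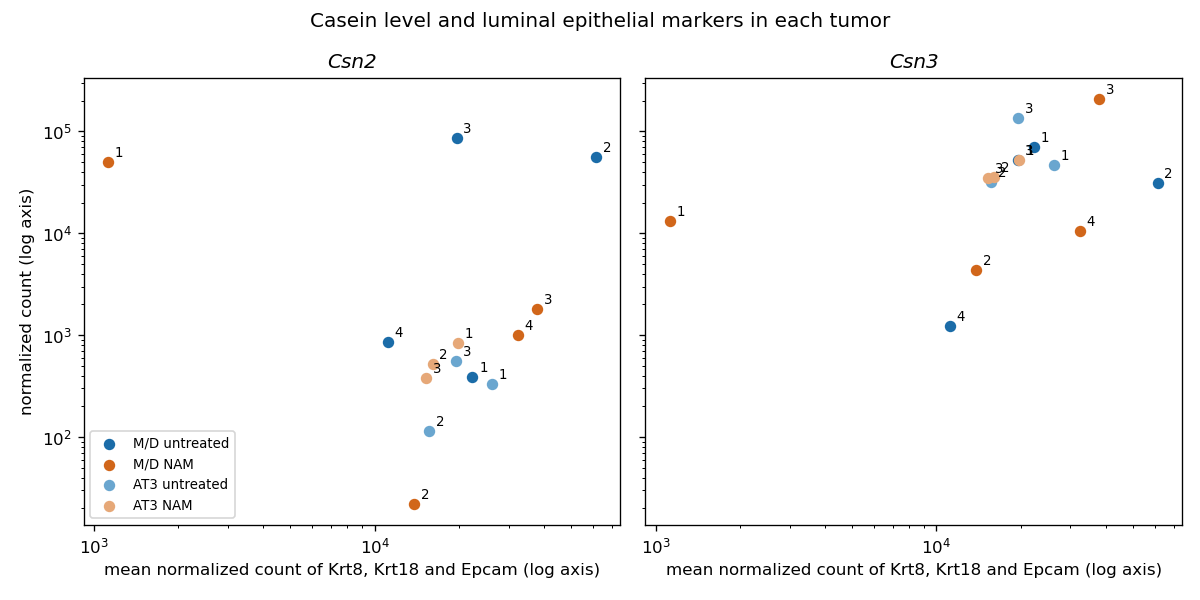
Normalized count of Csn2 (left) and Csn3 (right) on the y axis against the mean normalized count of Krt8, Krt18 and Epcam on the x axis, both on log axes, with 1 point per tumor and its replicate number. NAM-treated M/D-driven tumor 1 lies far to the left at a marker mean of 1123 and yet at 49485 for Csn2, and M/D-driven tumors with similar marker means differ widely in Csn2.

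NAM-treated were compared with untreated M/D-driven tumors to ask whether NAM changed the milk protein genes. Of the 9 members, 0 passed the thresholds (a p-value before adjustment of no more than 0.05, together with a 1.5-fold change or more) by limma or edgeR, nor did any of the 7 to which DESeq2 gave a p-value (it gave none for Wap and Glycam1), against 6.22% of all genes tested by limma. By limma, 0 were below that p-value whatever the fold. By limma, the log2 fold change was -2.4 (SE 2.57) for Csn2, -2.25 (SE 3.41) for Csn1s2a, -1.33 (SE 1.45) for Btn1a1, -0.83 (SE 2.04) for Glycam1, -0.69 (SE 1.71) for Csn1s1 and -0.49 (SE 0.43) for Xdh. Without NAM-treated tumor 2, it was -0.50 for Csn2 and -0.18 for Btn1a1. Over all 8 tumors it was -0.02 (SE 1.54) for Csn3, 0.27 (SE 2.39) for Wap and 0.51 (SE 1.48) for Lalba. Among the members, the smallest p adjusted over all genes tested was 0.811, for Xdh, and it ranged from 0.561 to 0.992 over its alternatives. Exact two-sided permutation tests gave p from 0.4 to 1, where 0.0286 was the smallest possible. The groups overlapped for 9 of 9 members, and did not overlap for 4.43% of all genes. The median log2 fold change of the members was -0.69, against 0.01 over all genes. For 8 of 9 members the SE was 1.45 or more on the log2 scale, so that changes of several fold were not detectable with these tumors.

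Without NAM-treated tumor 1, which leaves the 7 tumors of experiment 1, 0 of 9 members passed the thresholds, against 5.17% of all genes. The log2 fold change was then -4.19 (SE 2.38) for Csn2, -4.47 (SE 3.26) for Csn1s2a, -2.68 (SE 1.49) for Glycam1, -1.5 (SE 1.79) for Csn1s1 and -1.41 (SE 1.65) for Btn1a1. That of Wap was -1.76 (SE 1.90), opposite in sign to the value with all 8 tumors, that of Csn3 was 0.15 (SE 1.75) and that of Lalba 0.10 (SE 1.64), whereas Xdh was at -0.11 (SE 0.33). Experiment 2 held only this tumor, so no value within it could be had.

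**Figure D4:**
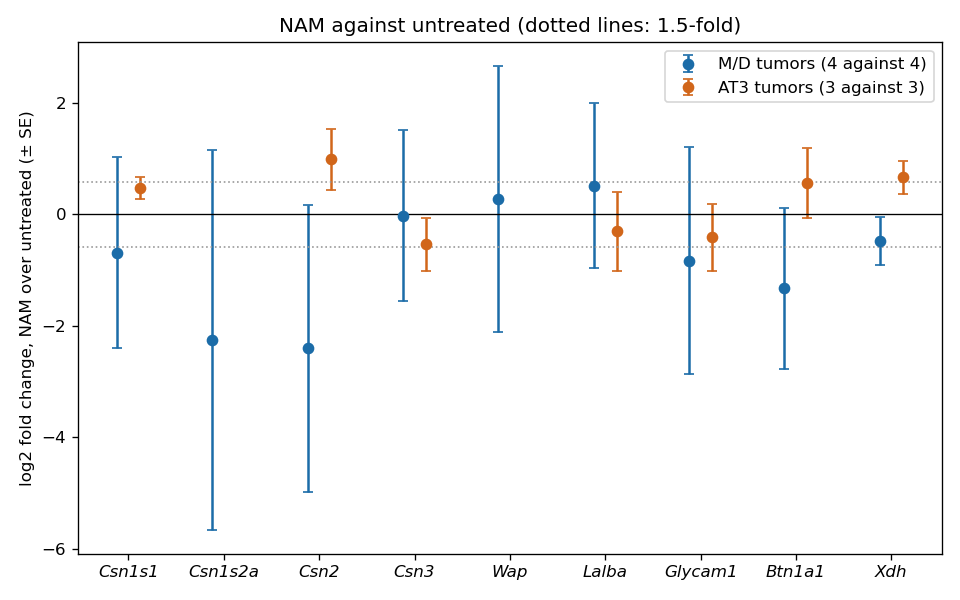
Log2 fold change of NAM-treated over untreated tumors (y axis, points, with SE as bars) for each gene (x axis) in M/D-driven and AT3 tumors, with dotted lines at a 1.5-fold change. The bars of the M/D-driven tumors cross 0 for all genes but Xdh, whose log2 fold change was -0.49 (SE 0.43), and Csn1s2a and Wap, too low in AT3 tumors to be tested, have no point for that model.

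In AT3 tumors, 7 of the 9 members had a group mean of at least 10 and were tested, and 0 passed the thresholds by limma, edgeR or DESeq2, against 23.1% of all genes by limma, whereas 1 of 7 (Csn1s1) passed on the p-value alone. Csn1s1 was higher in all 3 NAM-treated than in all 3 untreated tumors, with a log2 fold change of 0.46 (SE 0.20, adjusted p = 0.195 by limma, 0.0703 to 0.553 over its alternatives), below the fold required. The groups did not overlap for this 1 of 7 members, against 22.6% of all genes, and the exact two-sided permutation test gave p = 0.1, the smallest possible. The log2 fold change was 0.98 (SE 0.54) for Csn2, 0.66 (SE 0.30) for Xdh, 0.57 (SE 0.63) for Btn1a1, -0.54 (SE 0.48) for Csn3, -0.41 (SE 0.61) for Glycam1 and -0.31 (SE 0.71) for Lalba, with adjusted p from 0.207 for Xdh to 0.803 for Lalba. Xdh passed the thresholds without untreated tumor 2 (0.91) or NAM-treated tumor 1 (0.83), and Csn2 without untreated tumor 3 (1.48). The median of the 7 was 0.46, against -0.05 over all genes.

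Fold changes in AT3 tumors moved with transcript length across genes (Spearman's rho = 0.59 over 16429 genes, which are not independent replicates), whereas those in M/D-driven tumors did not to that degree (rho = -0.04 over 18460 genes). The longest coding transcript of Csn1s1 has 1411 bases and that of Xdh 4600. Once the trend of each tumor with length was removed, Csn1s1 passed the thresholds with a log2 fold change of 0.91 (SE 0.24, adjusted p = 0.202) and Xdh was at -0.0446 (SE 0.20), so that 1 of 7 members passed, against 16.1% of all genes. That of Csn2 was 0.74 (SE 0.57).

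The effect of NAM was also compared between models by an interaction term over the 14 tumors, which the scaling of each model leaves untouched. Of the 9 members, 0 had a p-value before adjustment of no more than 0.05 in limma and so 0 passed with a difference of 1.5-fold or more, against 14.9% of all genes. After adjustment, 0 of the 22710 genes tested by limma passed, whereas 3377 passed on the p-value before adjustment and the difference. The difference of log2 fold changes, M/D minus AT3, was -3.38 (SE 3.15) for Csn2, -1.15 (SE 0.59, adjusted p = 0.367, 0.213 to 0.662 over its alternatives) for Xdh and -1.15 (SE 2.06) for Csn1s1. Without NAM-treated M/D-driven tumor 2 or 4, or without untreated AT3 tumor 2, Xdh alone passed, with -1.31, -1.47 and -1.40. The difference was not fitted with the length trend removed. Within models, that removal put the log2 fold change of Xdh at -0.39 in M/D-driven and -0.0446 in AT3 tumors.

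Untreated tumors of both models were then set on a common scale to compare levels. Model and experiment go together in these samples and cannot be told apart. Of the 9 members, 4 were higher in M/D-driven tumors (an adjusted p-value of no more than 0.05 by limma, with a 1.5-fold change or more), and 0 were lower. Among all genes 50.5% were called in either direction, so a share of 4 in 9 is no larger than the background. Csn1s2a had a log2 fold change of 8.14 (SE 2.21, adjusted p = 0.0145, 0.00156 to 0.0598 over its alternatives) and was not called without untreated AT3 tumor 2, in which it had 2 reads. Glycam1 was higher by 5.72 (SE 1.21, adjusted p = 0.00499), Btn1a1 by 5.36 (SE 1.15, adjusted p = 0.00537) and Xdh by 2.33 (SE 0.27, adjusted p = 0.000363), and each remained called under all alternatives run. The log2 fold change was 4.11 (SE 1.86, adjusted p = 0.0932) for Csn2, 3.38 (SE 1.65) for Wap, 1.88 (SE 1.51) for Csn1s1 and 1.82 (SE 1.5) for Lalba. Csn3 was the only member with a negative value, -2.0 (SE 1.28, adjusted p = 0.215). Csn2 passed without untreated M/D-driven tumor 1 (5.45) and Wap without untreated M/D-driven tumor 2 (4.29).

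Levels of different genes were compared per kilobase of the longest coding transcript. The authors had counted reads only on regions not prone to alternative splicing. The lengths of those regions were not used here or for the ratio of Csn3 to Csn2, so the order can depend on the divisor. Csn3 led the 9 members in all 6 AT3 tumors, at 19778 to 84502 normalized counts per kb, followed by Csn1s1 at 779 to 1169. In M/D-driven tumors the leading member changed from tumor to tumor. Csn2 led in untreated tumors 2 (42265) and 3 (65003), Csn1s2a in NAM-treated tumor 1 (50326), Xdh in untreated tumor 4 (1368), and Csn3 in untreated tumor 1 (43813) and NAM-treated tumors 2 to 4 (2735, 130996 and 6640). Before division by length, Csn2 (49485) was above Csn1s2a (46300) in NAM-treated tumor 1, and Xdh (7279) above Csn3 (4366) in NAM-treated tumor 2.

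The stretch of chromosome 5 from Csn1s1 to Csn3 spans 266 kb and holds 9 genes of the table. Csn1s2b, which lies between Csn1s2a and Csn3, was at 8.31, 533, 107 and 0 normalized counts in untreated and at 1012, 1.22, 10.1 and 12.0 in NAM-treated M/D-driven tumors, highest in the same 3 tumors as Csn2. In AT3 tumors it had 19.8 to 142. Prr27, the next gene toward Csn3, was at 164 to 377 in AT3 tumors and at 0 to 0.920 in M/D-driven tumors. Odam, between Prr27 and Csn3, stayed at 0 to 54.3 over all 14 tumors, while Csn3 itself reached 209069.

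Further genes of milk were read from 3 lists. Of 20 further milk and milk fat globule genes, 0 rose and 4 fell with NAM in M/D-driven tumors at the same thresholds, with a median log2 fold change of -0.28, against 6.22% of all genes past the thresholds in either direction. They were Cidea of lipid droplets (-3.21, SE 1.25), Ltf (lactoferrin, -2.30, SE 0.99), the phosphate transporter Slc34a2 (-2.29, SE 0.91) and the folate receptor Folr1 (-2.11, SE 0.81), each with an adjusted p of 0.734. Without NAM-treated tumor 1, Folr1 alone passed, at -1.31, against 5.17% of all genes. In AT3 tumors 16 of the 20 were tested, 1 rose (Muc15, a mucin of the globule membrane, 2.22, SE 0.62) and 3 fell, which were Spp1 (osteopontin, -1.29, SE 0.32), Wfdc18 (-1.15, SE 0.41) and Wfdc3 (-1.44, SE 0.39), with adjusted p from 0.166 to 0.169 and a list median of -0.17. These 4 of 16 make 25%, near the 23.1% of all genes. With the length trend removed, 1 rose and 2 fell, and Wfdc18 (-0.49) no longer passed, so that 18.8% passed, against 16.1% of all genes.

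Of 15 genes that supply lactose, lipid and calcium, 0 rose and 0 fell in M/D-driven tumors (median -0.32). Srebf1, a regulator of lipid synthesis, had a log2 fold change of -0.09 (SE 0.47) and the desaturase gene Scd1 one of -0.49 (SE 0.38). Without NAM-treated tumor 1, 1 fell (Olah, a thioesterase of fatty acid synthesis, -3.34), which makes 6.67%, near the 5.17% of all genes. In AT3 tumors 14 were tested, 4 rose and 0 fell (median 0.35). These make 28.6%, near the 23.1% of all genes that passed in either direction. Of the 19281 genes tested in AT3 tumors, 2358 rose. The 4 were Scd2 (1.53, SE 0.36), Gpam of glycerolipid synthesis (1.25, SE 0.34), B4galt1, the catalytic partner of Lalba in lactose synthase (0.83, SE 0.24), and the glucose transporter Slc2a1 (0.59, SE 0.25). Scd2 and Gpam still passed once the length trend was removed, at 1.01 and 0.65 (14.3%, against 16.1% of all genes). Of 18 genes that control lactogenic differentiation, 0 passed in M/D-driven tumors (median -0.05), with Cebpb at -1.23 (SE 0.79) and the oxytocin receptor Oxtr at -0.20 (SE 1.51). Without NAM-treated tumor 1, 1 of the 18 rose (Id2, 0.89), which makes 5.56%, near the 5.17% of all genes. In AT3 tumors 17 were tested, 5 rose and 0 fell (29.4%, against 23.1% of all genes in either direction, median 0.63). Those that rose were Esr1 (2.70, SE 1.03), Nfib (1.5, SE 0.47), Stat5b (1.13, SE 0.29), the glucocorticoid receptor gene Nr3c1 (1.04, SE 0.32) and Socs2 (0.64, SE 0.26). Esr1 was low, at 0, 6.09 and 9.77 normalized counts without and 9.72, 33.9 and 54.5 with NAM. Stat5b and Nfib passed with the length trend removed, at 0.64 and 0.74 (11.8%, against 16.1% of all genes). Adjusted p was 0.166 to 0.200 for these 9 genes.

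Among these regulators, Elf5 was at 4738, 4493, 6858 and 4292 normalized counts in untreated and at 385, 2481, 7664 and 8672 in NAM-treated M/D-driven tumors, so that NAM-treated tumor 1 had high Csn2 with the lowest Elf5 of the 8. The prolactin receptor gene Prlr was at 196 and Stat5a at 3192 in that tumor, against 101 to 2610 and 1427 to 6615 in the other 7. Stat5b was at 6031 there against 1768 to 4609 in the other 7, and Socs2 at 3075 against 192 to 1290. Cish was at 6443, against 1789 to 6653. Nr3c1 was also highest in that tumor, whereas Cebpb, Nfib, Gata3, Pgr, Id2 and Oxtr were lowest there, as was Elf5. Untreated tumor 2, with high Csn2, had 2367 of Prlr and 3587 of Stat5a, and untreated tumor 3 had 533 and 4574. NAM-treated tumor 3, the highest for Csn3, had 2610 of Prlr, 6615 of Stat5a and 12806 of Tnfsf11 (RANKL, a target of progesterone in luminal cells). Tnfsf11 was next highest in NAM-treated tumor 1 (4533) and untreated tumor 2 (3949), both with high Csn2. In untreated tumor 3, the highest for Csn2, Tnfsf11 was at 651, below the 686 of untreated tumor 4, which had low Csn2. Tnfsf11 was at 458 in untreated tumor 1, the second highest for Csn3.

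Cell type markers gave the following counts with NAM, at the same thresholds, which 6.22% of all genes passed in M/D-driven and 23.1% in AT3 tumors. In M/D-driven tumors, 2 of 7 adipocyte markers rose, Adipoq (0.85, SE 0.21) and Car3 (0.68, SE 0.29), with an adjusted p of 0.734, and 0 of 9 luminal, 0 of 7 basal, 0 of 8 venule and lymph node, 0 of 5 blood endothelial and 0 of 5 macrophage markers passed. Without NAM-treated tumor 1, Adipoq (0.73) rose and the luminal Cdh1 (-0.74) fell, and no other marker of these lists passed, against 5.17% of all genes. In AT3 tumors 1 of 9 luminal markers rose (Cdh1, 0.90) and 2 fell (Krt19, -1.24, and Krt7, -0.92). Of 7 basal markers, 2 rose (Myh11, 2.01, and Trp63, 0.84) and 2 fell (Krt14, -0.79, and Krt17, -0.65). Myh11 was low, at 1.63 to 10.2 normalized counts without and 16.9 to 31.6 with NAM. Of 7 adipocyte markers 0 rose and 1 fell (Fabp4, -1.02), and of the 6 venule and lymph node markers tested 0 rose and 1 fell (Cd79a, -1.14). Of 5 blood endothelial markers, 4 rose (Kdr, 1.54, Cdh5, 1.39, Tek, 1.05, and Pecam1, 0.71), and of 5 macrophage markers, 3 rose (Adgre1, 1.05, Csf1r, 1.04, and Mrc1, 0.82). With the length trend removed, which left 16.1% of all genes past the thresholds, Krt7 and Fabp4 fell, the same 4 endothelial markers, Adgre1 and Csf1r rose, and no basal or venule marker passed. The adipocyte markers summed to 33331 to 90479 in untreated and to 58517 to 130479 in NAM-treated M/D-driven tumors, where Csn2 was not called. The part of any of these cell types in the milk protein levels was not tested.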

How the data were processed

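The authors mapped the reads of 14 tumors with STAR 2.4.0 on mm10 and counted them on constitutive regions of Mouse FAST DB genes. The deposited signal is each count divided by a DESeq2 size factor, here called the normalized count. Whole reads were recovered, since 100% of values were whole multiples of the value of 1 read (tolerance 0.001 reads). Median ratios to the gene-wise average were 0.975 to 1.023 within models and 0.837 to 1.166 across them, so the models had been scaled separately.

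All genes with a mean of 10 or more in any group compared were tested with limma 3.58.1 (R 4.3.3, trended variance) on log2(normalized count + 1), the scale of all fold changes, with Benjamini-Hochberg adjustment over all of them. For levels between models, recovered reads were put on common size factors. The alternatives changed the pseudocount (0.5, 5), the filter (none, 50) or the scaling (TMM), used edgeR 4.0.16 or DESeq2 1.42.0, blocked on the replicate number, took out the trend with transcript length (spline with 4 degrees of freedom, lengths from GENCODE for 85.1% of genes in M/D-driven and 85.2% in AT3 tumors), kept experiment 1 only, or left out each tumor. The tests were tested on simulated data. The labels do not say how tumors of a group are related, so p-values measure the spread between these tumors.

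The members and lists were chosen with earlier results of these data known. The text names all 9 members, genes of the 3 milk lists past the thresholds (otherwise the 2 highest in M/D-driven tumors), markers past the thresholds and the 5 genes most like Csn2. Fut7, Csn1s2b, Prr27, Odam, Elf5, Prlr, Stat5a, Tnfsf11, Cish, Gata3, Pgr and the named markers of NAM-treated M/D-driven tumor 1 were chosen after their values were seen. So were the levels of further regulators given for that tumor. The list of general leukocyte markers is not reported here. Python 3.11.15, pandas 2.3.3, scipy 1.17.1 and matplotlib 3.10.9 were used.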

Additional observations from a re-analysis of the deposited data

Results flagged for a closer look

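In 7 of the 18 combinations of a member and an M/D-driven group, 1 tumor was far above the other 3 on the scale of normalized counts, since its gap to the nearest other, divided by the range of the group, exceeded Dixon's 95% critical value for 4 tumors. On the log2 scale, on which the tests were run, 0 of the 18 did. Chance alone gives such a gap in about 1 in 20 groups of normally distributed values, and the members share their tumors. In NAM-treated tumor 1, the gap was 0.977 of the range for Csn1s2a, 0.964 for Csn2, 0.984 for Wap and 0.983 for Glycam1. NAM-treated tumor 3 stood out for Csn3, with 0.957 of the range. Untreated tumor 3 stood out for Wap, with 0.991, and for Glycam1, with 0.913.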

How the results depend on the processing

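The count of members past the thresholds with NAM in M/D-driven tumors was 0 under every alternative run, although DESeq2 gave no p-value for Wap and Glycam1. In AT3 tumors it was 1 with a pseudocount of 5, without a filter on low values and with TMM scaling (Xdh each time), 1 with the transcript length trend removed (Csn1s1), and 0 to 1 with 1 tumor left out: Xdh without untreated tumor 2 (0.91) or NAM-treated tumor 1 (0.83), and Csn2 without untreated tumor 3 (1.48). For the difference between models it was 0 to 1 with 1 tumor left out. The count of members called between untreated models was 3 to 5 with 1 tumor left out and 6 by edgeR, which added Csn2 and Wap. The cause of these changes was not tested.

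Tumors with the same replicate number did not deviate together (mean correlation -0.18 in M/D-driven and 0.07 in AT3 tumors, with individual pairs from -0.44 to 0.26), so that the numbers were not taken to pair tumors. With the replicate block, 2 members passed in AT3 tumors, Csn2 (0.98) and Xdh (0.66), 0 in M/D-driven tumors and 0 in the difference between models.

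Of 595 values of single members under alternatives, 530 kept their sign and their side of the thresholds and 48 changed sign, 36 of them with 1 tumor left out. The filters, the replicate block and the adjusted p-value leave the fold change as it is, so these values could not change sign. The fit without the tumor of experiment 2 is the same as that without NAM-treated M/D-driven tumor 1, and its values were counted under both names. With NAM in M/D-driven tumors, edgeR and DESeq2, which compare mean counts and not mean logs, gave 0.60 and 0.61 for Csn3, -1.12 and -1.12 for Lalba and 1.07 and 1.07 for Glycam1, and kept the sign at -1.74 and -1.74 for Csn1s1 and -0.46 and -0.44 for Csn1s2a. Removal of the length trend gave 0.14 for Csn3 there, and experiment 1 only gave 0.15 for Csn3 and -1.76 for Wap. In AT3 tumors the length trend removed gave 0.41 for Lalba and -0.0446 for Xdh, and without the tumor of experiment 2 the difference between models was -1.83 for Wap. With 1 tumor left out, log2 fold changes in M/D-driven tumors ranged from -1.66 to 0.53 for Csn1s1, -4.47 to 0.69 for Csn1s2a, -1.35 to 0.68 for Csn3, -1.76 to 1.99 for Wap, -0.48 to 1.76 for Lalba and -2.68 to 0.50 for Glycam1, and without a change of sign from -4.19 to -0.50 for Csn2, -2.35 to -0.18 for Btn1a1 and -0.81 to -0.11 for Xdh. They ranged from -0.99 to 0.0619 for Csn3 and -0.78 to 0.20 for Lalba in AT3 tumors. The difference between models ranged from -2.12 to 0.0703 for Csn1s1, -4.92 to 0.24 for Csn1s2a, -0.81 to 1.22 for Csn3, -1.83 to 1.92 for Wap, -0.18 to 2.07 for Lalba and -2.27 to 0.91 for Glycam1.

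The planned correlation test of the members with Csn2 over M/D-driven tumors, with its alternatives, was not run, since Csn2 fell into separate ranges of 5 and 3 tumors. Values of Csn1s2a and Wap in AT3 tumors rest on 2 to 14 reads. The alternatives for the gene lists, and spread and likeness without the tumor of experiment 2, were added after seeing the data.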
